A study of Mus musculus with 21 samples.

Results

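Mouse embryonic stem cells rescued with the factor named miniSOX were compared with the same cells rescued with SOX2, both grown in 2i medium, across all 16443 genes of an RNA-seq table. The miniSOX group held 2 libraries (replicates 1 and 2) and the SOX2 group held 4 (1, 2, p21 and p31, the last pair called after their columns), chosen by their column names out of 21 libraries in all. Both groups were the 2TS22C line with its endogenous SOX2 silenced, transduced with a lentivirus carrying the rescue factor and treated with DOX (doxycycline). The silencing, the transduction and DOX were therefore common to both groups. The line is known as one in which doxycycline shuts off the cells' own supply of SOX2. The labels give miniSOX by name only and do not say whether a rescued line was 1 clone. Further groups were used where stated: cells rescued with SOX17FNV, an engineered SOX17, in the same way (called FNV, 4 libraries in 2i), untransduced cells labelled WT without DOX (called NTC, 3 libraries in 2i), and 2 libraries of each line in serum and LIF medium without the inhibitors (called SL).

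SOX proteins bind DNA through a conserved HMG box, and in pluripotent cells SOX2 binds beside OCT4 at enhancers of pluripotency genes. SOX17 is known as a regulator of endoderm and, in human, of germ cell fate, and its wild-type form does not replace SOX2 in reprogramming. The 2i medium holds inhibitors of the kinases MEK and GSK3, which lower ERK signalling and raise β-catenin activity and keep mouse embryonic stem cells in the naive, preimplantation-like state. LIF acts through its receptor and STAT3 in the same direction.

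The values are the authors' normalized and rounded numbers per gene, called deposited values here, with a median of 214 and nearly equal totals in the 6 libraries (14044806 to 14047262). Depth is therefore unknown, and at the top of the range libraries share the same few values. The miniSOX libraries and SOX2 p21 and p31 belong to the second of 2 deposited sets, and SOX2 1 and 2 belong to the first. Over 3378 genes of middle level, the log2 difference between miniSOX 1 and 2 had an SD of 0.123, that between SOX2 1 and 2 had 0.112, and that between SOX2 p21 and p31 had 0.281. Across the sets the SOX2 libraries stood further apart, at 0.498 (1 and p21) and 0.605 (1 and p31), about as far as miniSOX 1 stood from SOX2 1 (0.601), p21 (0.471) and p31 (0.519). The labels do not say whether libraries of 1 group were grown as separate cultures. The p-values rest on the spread between libraries within groups over all 21 libraries, not these 6 alone. That spread may be technical. Changes below are log2 changes of miniSOX minus SOX2 with their standard errors, from limma with a term for the deposited set. A gene passed at an adjusted p under 0.05. The set term also rests on FNV and NTC libraries, so a change can exceed the plain difference from the SOX2 libraries of either set. For Ntn1 it was -6.45, with mean log2 differences of -5.77 from the first and -6.12 from the second set. The values of SOX2 libraries are given in the order 1, 2, p21 and p31. Rose and fell compare miniSOX with SOX2 cells only, and do not say which line differed from untransduced cells.

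The defining markers of embryonic stem cells were expressed in both groups, and 9 of the 10 markers did not pass the test. Pou5f1, which encodes OCT4, had 10050 in both miniSOX libraries, against 10050, 10739, 12486 and 16422 in SOX2 libraries (log2 change -0.37 ± 0.17, adjusted p = 0.155). Nanog had 19699 and 21188 in miniSOX libraries, against 19699, 21188, 19699 and 16427 in SOX2 libraries (0.27 ± 0.14, adjusted p = 0.231). The groups overlapped for both genes. Esrrb, an orphan nuclear receptor of the naive network, had 5475 and 5573 in miniSOX libraries, against 8734, 8734, 7307 and 6370 in SOX2 libraries (-0.38 ± 0.13, adjusted p = 0.059). The libraries did not overlap for Esrrb, but the change missed the threshold. Sall4, Zfp42, Utf1, Dppa5a, Tdgf1 and Cdh1 had adjusted p-values of 0.0579, 0.291, 0.962, 0.255, 0.431 and 0.143. Epcam, an epithelial adhesion protein of embryonic stem cells, was the tenth marker and rose.

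In all, 2449 of 16443 genes passed (14.9%), 1204 of them higher (7.32%) and 1245 lower (7.57%) in miniSOX cells, and 987 of the 2449 changed at least 2-fold. The shares of 14.9%, 7.32% and 7.57% are the background for the counts of gene list members below. The median log2 change of all genes was -0.0089. Both miniSOX libraries lay above every SOX2 library for 2665 of the 16443 genes and below every SOX2 library for 3150. Of these, 998 and 1084 passed in that direction. Lack of overlap between the groups was therefore common, and alone it marks no gene as changed. The count was 917 without miniSOX replicate 1 and 871 without replicate 2, 1414 without the term for the deposited set, and 1080 when only the second set was used. Of the 2449, 869 passed in the same direction in the second set alone.

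**Figure D1:**
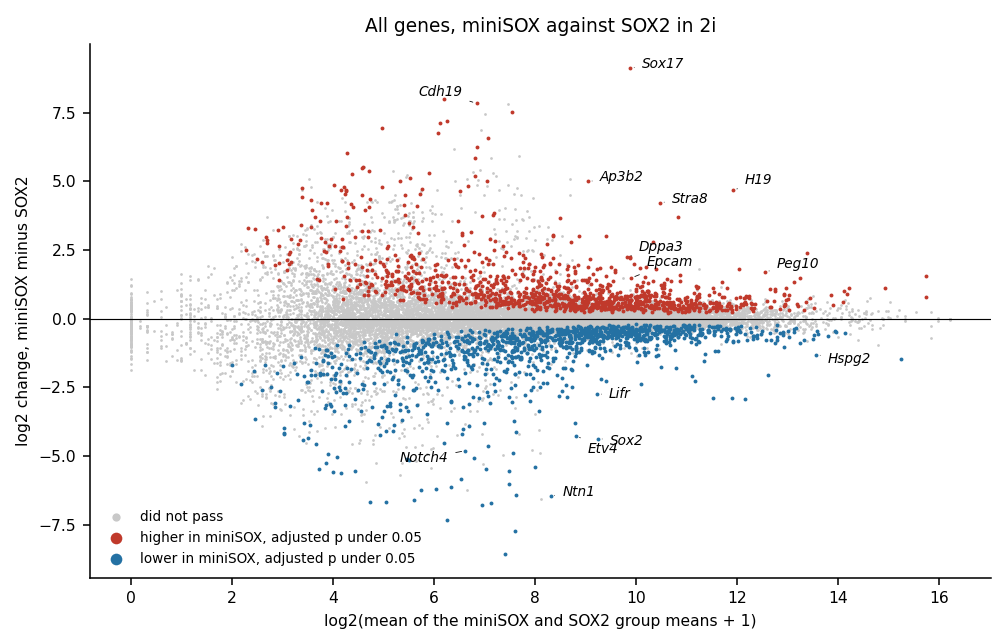
Log2 change of miniSOX minus SOX2 in 2i (vertical axis) against the log2 of the mean deposited value plus 1 (horizontal axis) for 16443 genes, 1 point each. Red points (1204) were higher and blue points (1245) lower in miniSOX cells at an adjusted p under 0.05, and grey points did not pass. Sox17 has the highest change among genes that passed, at 9.11.

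Sox17 and Sox2 values set the lines apart. Sox17 had 1813 and 1953 in miniSOX libraries, against 6, 5, 2 and 2 in SOX2 libraries. It was high in every miniSOX library and near 0 in every SOX2 library (log2 change 9.11 ± 0.35, adjusted p = 1.19e-09). Sox2 had 47 and 60 in miniSOX libraries, against 1509, 1251, 939 and 947 in SOX2 libraries, which again did not overlap (-4.36 ± 0.38, adjusted p = 4.49e-06). In the other groups in 2i, FNV libraries held between 1792 and 3301 for Sox17 and between 19 and 43 for Sox2, and NTC libraries held between 0 and 1 for Sox17 and between 1310 and 2697 for Sox2. Reads assigned to Sox17 in the miniSOX line are a measured fact. Which part of the gene they came from was not tested, because the table gives 1 value a gene. For the same reason it was not tested whether they came from the rescue factor or from the cells' own gene.

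Of 11 Sox family genes measured, 1 rose and 3 fell. Besides Sox2 and Sox17, Sox21, a SOX2-related repressor that is a known SOX2 target, had 44 in both miniSOX libraries, against 87, 99, 232 and 472 in SOX2 libraries (-2.82 ± 0.51, adjusted p = 0.00209). SOX2 libraries of the second set were the highest, and the call ended when only that set was used. Sox11, a neural SOX factor, had 0 and 23 in miniSOX libraries, against 62, 85, 36 and 33 in SOX2 libraries (-3.18 ± 0.90, adjusted p = 0.0277). This change depended on 1 library, at -0.88 without miniSOX replicate 1, where the call ended, and -5.47 without replicate 2. The 7 members that did not pass included Sox15, a close relative of SOX2, with 47 and 46 in miniSOX libraries, against 34, 20, 35 and 26 in SOX2 libraries.

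Among regulators of naive pluripotency, 3 of 22 measured rose and 6 fell, with a median log2 change of -0.39. The decreases included Nr0b1 and Tcl1, and the increases included Dppa3 and Klf4. Nr0b1, which encodes the nuclear receptor DAX1, had 21 and 17 in miniSOX libraries, against 297, 301, 193 and 133 in SOX2 libraries (-3.78 ± 0.69, adjusted p = 0.00224). Tcl1, a co-activator of AKT, had 63 and 72 in miniSOX libraries, against 855, 949, 720 and 722 in SOX2 libraries (-3.79 ± 0.79, adjusted p = 0.00569). For both genes every miniSOX library lay below every SOX2 library. Klf2, a Krüppel-like factor of the naive network, had 1663 and 1824 in miniSOX libraries, against 2987, 3057, 3135 and 3135 in SOX2 libraries (-0.85 ± 0.21, adjusted p = 0.016). Klf4, its relative and a reprogramming factor, went the other way, with 8736 in both miniSOX libraries, against 3580, 3647, 5266 and 4048 in SOX2 libraries (1.06 ± 0.23, adjusted p = 0.00768). Dppa3, which encodes the oocyte and primordial germ cell protein Stella, had 1531 and 1479 in miniSOX libraries, against 255, 262, 382 and 317 in SOX2 libraries. Its change of 2.25 ± 0.28 (adjusted p = 0.000135) had the smallest adjusted p of the 3 increases and passed in every alternative. When miniSOX replicate 1 was left out, Tcl1 (-3.69), Klf2 (-0.78) and Klf4 (1.06) did not pass, and without replicate 2 neither did Klf2 (-0.91) and Klf4 (1.06). The list then held 1 higher and 1 lower, or 1 higher and 2 lower.

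Of 24 genes shared by naive and primed pluripotent cells, 6 rose and 0 fell in limma, with a median log2 change of 0.10. At an unadjusted p under 0.05 there were 6 higher and 6 lower members. Epcam had the smallest adjusted p of the 6, with 1303 and 1363 in miniSOX libraries, against 656, 681, 501 and 466 in SOX2 libraries (1.48 ± 0.10, adjusted p = 4.06e-07). The groups were well apart, and the call held in every alternative. Nodal, Lefty1, Lefty2 and Gdf3 were 4 of the others. Without miniSOX replicate 1, and likewise without replicate 2, 2 members of the list were higher.

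Nodal is a TGF-β family ligand that signals through activin receptors and SMAD2, and it induces its own antagonists, the Lefty proteins. In the Nodal and Activin list 7 of 17 measured genes rose and 1 fell, with a median log2 change of 0.44. Nodal itself had 712 and 702 in miniSOX libraries, against 279, 242, 318 and 317 in SOX2 libraries (1.41 ± 0.29, adjusted p = 0.00534). Among the antagonists, Lefty2 had 2761 and 2897 in miniSOX libraries, against 1115, 1198, 790 and 39 in SOX2 libraries (3.68 ± 0.97, adjusted p = 0.0202). The SOX2 libraries were all lower, but p31 stood far below the rest, and without it the change was 2.40. Without SOX2 p21 it was 4.65. Lefty1 had 18 and 19 in miniSOX libraries, against 4, 4, 4 and 0 in SOX2 libraries (3.33 ± 0.89, adjusted p = 0.0213).

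Of the activin subunits, Inhbb had 123 and 135 in miniSOX libraries, against 62, 38, 65 and 18 in SOX2 libraries (1.87 ± 0.47, adjusted p = 0.0156). Inhba had 8 and 18 in miniSOX libraries and was listed at 0 in all 4 SOX2 libraries (adjusted p = 0.00849). Every miniSOX library lay above every SOX2 library for these subunits. The ligand gene Gdf3, which also rose, had 917 and 1037 in miniSOX libraries, against 886, 1007, 780 and 651 in SOX2 libraries, so that the groups overlapped (0.43 ± 0.12, adjusted p = 0.0202). The decrease was in Acvr2b, an activin receptor, with 204 and 207 in miniSOX libraries, against 262, 262, 297 and 311 in SOX2 libraries (-0.55 ± 0.13, adjusted p = 0.0113). Nodal passed in every alternative. Without miniSOX replicate 1 the calls of Inhbb (1.93), Lefty1 (3.37), Lefty2 (3.72), Gdf3 (0.52) and Acvr2b (-0.54) ended, and without replicate 2 those of Inhba (2.67), Inhbb (1.80), Lefty1 (3.29), Lefty2 (3.65), Gdf3 (0.35) and Acvr2b (-0.56) ended, which left 2 members higher each time. Without SOX2 p31, Inhbb (1.39), Lefty1 (2.83) and Gdf3 (0.36) did not pass, and Lefty1 moved to 4.05 without SOX2 p21.

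LIF binds a receptor made of LIFR and gp130 (Il6st) and activates STAT3, whose targets include Socs and Pim genes and Klf4. In this pathway 7 of 21 measured genes fell and 1, Klf4, rose, with a median log2 change of -0.43. Lifr had 188 and 165 in miniSOX libraries, against 976, 936, 1146 and 1040 in SOX2 libraries. Lifr fell by 2.74 on the log2 scale (SE 0.16, adjusted p = 8.78e-08), and the call held in every alternative. Socs2, a feedback inhibitor of cytokine signalling, had 105 and 98 in miniSOX libraries, against 369, 405, 373 and 286 in SOX2 libraries (-1.71 ± 0.22, adjusted p = 0.000135). Stat3 had 708 and 764 in miniSOX libraries, against 1447, 1488, 1223 and 798 in SOX2 libraries (-0.55 ± 0.16, adjusted p = 0.0293). The kinase gene Pim1 had 949 and 913 in miniSOX libraries, against 3134, 3108, 1553 and 1509 in SOX2 libraries (-0.95 ± 0.24, adjusted p = 0.0169). No SOX2 library reached down to the miniSOX values for these 4 genes. For Il6st the values were 1098 and 1071 in miniSOX libraries, against 1049, 1051, 1475 and 1479 in SOX2 libraries (-0.43 ± 0.07, adjusted p = 0.000711), so that the groups overlapped, and the change had the other sign, at 0.046, against the SOX2 libraries of the first set. Without miniSOX replicate 1 Stat3 (-0.49) and Pim1 (-0.98) did not pass, nor did they without replicate 2 (-0.60 and -0.93), and Stat3 also failed without SOX2 1 (-0.52) or p21 (-0.45). Without either miniSOX library 3 members were lower.

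ERK signalling induces its own inhibitors and the ETS factors Etv4 and Etv5, and FGF ligands act upstream of it. In the list of ERK feedback genes and ETS targets 5 of 17 measured fell and 1 rose, with a median log2 change of -0.61. With miniSOX replicate 1 left out 3 were lower, with replicate 2 left out 3 were lower and 1 higher, and in the second set alone 1 was lower. Etv4 had 46 and 61 in miniSOX libraries, against 777, 808, 823 and 958 in SOX2 libraries (-4.25 ± 0.56, adjusted p = 0.00019). Etv5 had 3725 in both miniSOX libraries, against 3897, 3935, 3513 and 4137 in SOX2 libraries (0.02 ± 0.13, adjusted p = 0.957). For these related factors the picture differed: miniSOX and SOX2 libraries did not overlap for Etv4 and overlapped for Etv5. Spred1, an inhibitor of RAS and ERK signalling, had 359 and 357 in miniSOX libraries, against 573, 572, 843 and 841 in SOX2 libraries (-1.15 ± 0.10, adjusted p = 4.46e-06). Ier3, an immediate early gene, had 7 and 14 in miniSOX libraries, against 25, 28, 30 and 26 in SOX2 libraries (-1.37 ± 0.22, adjusted p = 0.000855). The increase was in Ccnd1, which encodes cyclin D1, with 1627 and 1521 in miniSOX libraries, against 1461, 1438, 740 and 741 in SOX2 libraries (0.91 ± 0.19, adjusted p = 0.0058). The SOX2 values of Ccnd1 fell into 2 levels by deposited set, and without miniSOX replicate 1 it did not pass (0.86). Etv4 and Ier3 did not pass in the second set alone.

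Among 13 FGF ligands and receptors, 1 fell and 1 rose, a share of 15.4% beside the background of 14.9%. With either miniSOX library left out 1 was lower. The decrease was in Fgf3, an early developmental ligand, with 2 in both miniSOX libraries, against 26, 26, 28 and 20 in SOX2 libraries (-3.12 ± 0.37, adjusted p = 8.4e-05). Fgf4, the main FGF ligand of embryonic stem cells and a known target of SOX2 and OCT4, had 2240 in both miniSOX libraries, against 3404, 3358, 1962 and 1900 in SOX2 libraries (0.22 ± 0.13, adjusted p = 0.301). The miniSOX values of Fgf4 lay between the SOX2 libraries of the 2 sets.

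**Figure D2:**
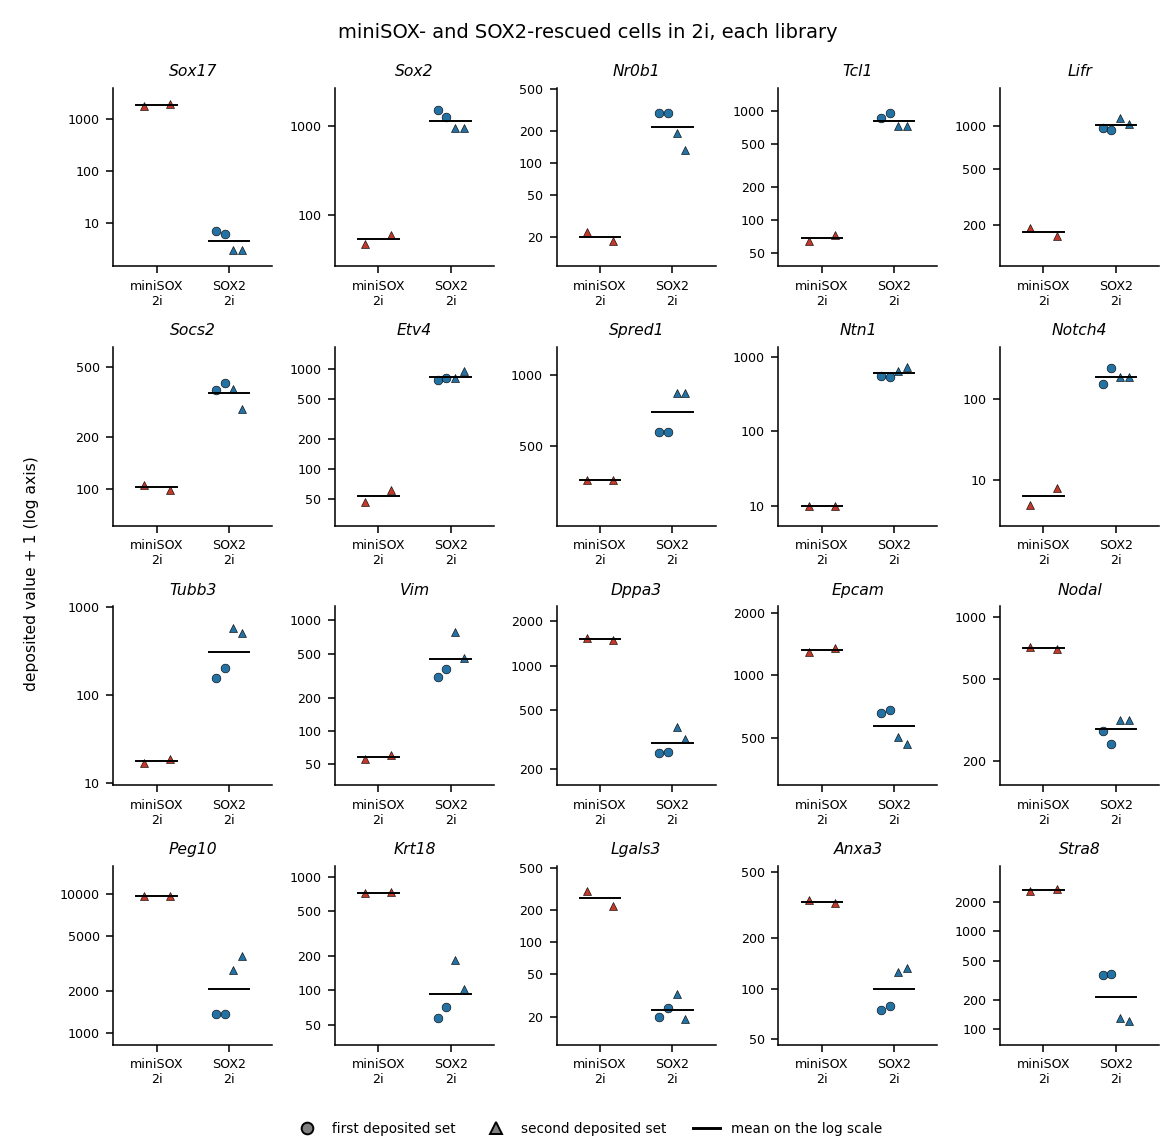
Deposited value plus 1 (vertical log axis, different in each panel) of 20 genes in the 2 miniSOX and 4 SOX2 libraries in 2i. Each point is a library, circles are of the first and triangles of the second deposited set, and the bar is the mean on the log scale. The miniSOX libraries lie outside the range of the SOX2 libraries in every panel, below it for Sox2, Lifr and Ntn1 and above it for Sox17, Nodal and Stra8.

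Of 9 neuroectoderm genes 4 fell, 1 rose and 4 did not pass (median -0.72, but 0.0 in the second set alone). Of 19 formative and primed genes 5 fell, 1 rose and 13 did not pass (median -0.50, but 0.016 over the 13 members with a mean of at least 50). Tubb3, a neuronal tubulin, had 16 and 18 in miniSOX libraries, against 156, 204, 571 and 507 in SOX2 libraries (-4.89 ± 0.39, adjusted p = 2.28e-06). Cdh2, which encodes N-cadherin, had 13 and 19 in miniSOX libraries, against 79, 85, 64 and 89 in SOX2 libraries (-2.59 ± 0.36, adjusted p = 0.000274). Otx2, a transcription factor of the epiblast and forebrain, had 54 and 58 in miniSOX libraries, against 85, 79, 163 and 212 in SOX2 libraries (-1.46 ± 0.28, adjusted p = 0.00337). The groups were apart for all 3 genes, and the highest SOX2 values of Tubb3 and Otx2 were in the second set. The call of Otx2 ended without the term for the deposited set (-1.13) and against the SOX2 libraries of the first set alone (-0.54). The neuroectoderm increase was in Prom1, a stem cell membrane protein, with 151 and 174 in miniSOX libraries, against 97, 89, 61 and 56 in SOX2 libraries (1.33 ± 0.18, adjusted p = 0.000285). Without miniSOX replicate 1 or 2, 1 neuroectoderm gene was lower and 1 higher, and the formative list had 3 or 4 lower.

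Of 21 Notch receptors, ligands and targets 6 fell and 1 rose. Notch4 had 4 and 7 in miniSOX libraries, against 152, 238, 185 and 182 in SOX2 libraries (-4.80 ± 0.53, adjusted p = 4.51e-05). The ligand gene Jag1 had 45 and 38 in miniSOX libraries, against 163, 179, 145 and 116 in SOX2 libraries (-1.97 ± 0.27, adjusted p = 0.000274). Both held in every alternative. Notch1 was less firm, with 940 and 921 in miniSOX libraries, against 1014, 1040, 1502 and 2268 in SOX2 libraries (-0.79 ± 0.18, adjusted p = 0.00859), and it did not pass without miniSOX replicate 1 (-0.80) or replicate 2 (-0.77). Without 1 of these libraries 2 or 4 members of the list were lower.

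Of 51 axon guidance ligands and receptors 10 fell and 6 rose (median -0.10). Ntn1, which encodes the secreted cue netrin-1, had 9 in both miniSOX libraries, against 552, 541, 658 and 738 in SOX2 libraries (-6.45 ± 0.37, adjusted p = 7.56e-08). Nrp2, a semaphorin receptor, had 6 and 11 in miniSOX libraries, against 51, 62, 69 and 55 in SOX2 libraries (-3.06 ± 0.28, adjusted p = 9.51e-06). Sema7a, a membrane-anchored semaphorin, was listed at 0 in both miniSOX libraries, against 23, 19, 45 and 21 in SOX2 libraries (adjusted p = 7.56e-05). These 3 genes were near 0 in miniSOX cells. The ephrin receptors split, with Ephb3 at 123 and 113 in miniSOX libraries, against 451, 445, 405 and 497 in SOX2 libraries (-1.90 ± 0.17, adjusted p = 7.6e-06). Ephb2 had 113 and 118 in miniSOX libraries, against 46, 61, 20 and 25 in SOX2 libraries (2.14 ± 0.35, adjusted p = 0.00095). Neither receptor's groups overlapped. The list had 8 lower and 2 higher with miniSOX replicate 1 left out, and 9 lower and 2 higher with replicate 2 left out.

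Simple keratins and other effector genes of the trophectoderm, the outer epithelium of the blastocyst, rose in 8 of 22 measured and fell in 3, with a median log2 change of 0.69. Krt18 had 716 and 738 in miniSOX libraries, against 56, 70, 183 and 103 in SOX2 libraries (2.78 ± 0.42, adjusted p = 0.000617). Its partner Krt8 had 1119 and 1265 in miniSOX libraries, against 156, 141, 572 and 453 in SOX2 libraries (1.68 ± 0.42, adjusted p = 0.0148). Both keratins were above every SOX2 library. Lgals3, which encodes galectin-3, had 303 and 220 in miniSOX libraries, against 19, 23, 32 and 18 in SOX2 libraries (3.78 ± 0.43, adjusted p = 5.65e-05). Wnt7b, a Wnt ligand of the placenta, had 65 and 99 in miniSOX libraries, against 6, 8, 4 and 10 in SOX2 libraries (3.49 ± 0.56, adjusted p = 0.000938). Anxa3, an annexin, had 336 and 325 in miniSOX libraries, against 74, 78, 125 and 132 in SOX2 libraries (1.56 ± 0.17, adjusted p = 4.51e-05). None of these 3 genes overlapped between the groups.

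Id2, an inhibitor of bHLH factors found in early trophectoderm, had 372 and 373 in miniSOX libraries, against 122, 133, 120 and 120 in SOX2 libraries (1.63 ± 0.31, adjusted p = 0.00313). Atp1b1, a sodium pump subunit, was among the 3 decreases, with 1298 and 1379 in miniSOX libraries, against 4087, 4048, 4087 and 3208 in SOX2 libraries (-1.55 ± 0.16, adjusted p = 3.16e-05). Slc2a3, the glucose transporter GLUT3, had 13688 and 14818 in miniSOX libraries, against 76006, 76006, 76006 and 25019 in SOX2 libraries (-1.48 ± 0.40, adjusted p = 0.0214). SOX2 p31 stood apart from the other SOX2 libraries for Atp1b1 and Slc2a3, yet both groups stayed apart. Of these effector genes, Krt8 (1.77) and Slc2a3 (-1.42) did not pass without miniSOX replicate 1, nor without replicate 2 (1.60 and -1.54), and Slc2a3 did not pass without SOX2 p21 (-0.99). The list had 6 higher and 2 lower, or 6 higher and 1 lower, without a miniSOX library.

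Of 14 transcription factors that define the trophectoderm, 1 rose and 1 fell, a share of 14.3% beside the background of 14.9%. With either miniSOX library left out 1 was higher. Cdx2, a defining factor, had 106 and 86 in miniSOX libraries, against 0, 0, 27 and 40 in SOX2 libraries, which did not overlap (2.38 ± 1.03, adjusted p = 0.141). The change of Cdx2 was 2.98 without SOX2 p31, where it did not pass either, and 6.59 against the SOX2 libraries of the first set alone, where it did. Gata3 had 21 and 24 in miniSOX libraries, against 12, 14, 54 and 130 in SOX2 libraries (adjusted p = 0.0724), and Hand1 and Elf5 were at 4 or below in miniSOX libraries. Ascl2, an imprinted regulator of trophoblast, was the increase, with 46 and 53 in miniSOX libraries, against 24, 24, 7 and 8 in SOX2 libraries (2.58 ± 0.47, adjusted p = 0.00237), and its call ended without the term for the deposited set (1.79) and in the second set alone (2.57). Eomes, a T-box factor, was the decrease, with 10 and 12 in miniSOX libraries, against 13, 10, 27 and 27 in SOX2 libraries (-1.35 ± 0.35, adjusted p = 0.0178). The values of Eomes overlapped with the first set, and its call ended without miniSOX replicate 1 (-1.23) or 2 (-1.47).

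The next lists bear on endoderm, the lineage for which SOX17 is best known. Of 13 extraembryonic endoderm regulators 3 rose and 0 fell in limma (median 0.81), with 7 higher and 1 lower at an unadjusted p under 0.05. With miniSOX replicate 1 left out 1 was higher and 1 lower, and with replicate 2 left out 1 was higher. Dab2, an endocytic adaptor of that lineage, had 2384 and 2503 in miniSOX libraries, against 556, 549, 987 and 1379 in SOX2 libraries (1.37 ± 0.26, adjusted p = 0.0032). Another of the 3 increases overlapped between the groups. Its mean log2 difference from the SOX2 libraries of the first set alone had the other sign, at -0.39. Gata6, a defining factor, had 157 and 165 in miniSOX libraries, against 40, 57, 94 and 65 in SOX2 libraries (0.89 ± 0.40, adjusted p = 0.156). The libraries of Gata6 did not overlap, but the change did not pass. Pdgfra, a receptor of primitive endoderm, had 59 and 44 in miniSOX libraries, against 37, 37, 22 and 23 in SOX2 libraries (0.81 ± 0.28, adjusted p = 0.067). Of 9 definitive endoderm genes 2 rose and 1 fell, with 1 of each when miniSOX replicate 1 was left out and 1 lower when replicate 2 was. The decrease was in Gsc, a homeobox gene of the organizer that is also on the primitive streak list, with 4 and 10 in miniSOX libraries, against 27, 55, 104 and 73 in SOX2 libraries (-3.88 ± 0.53, adjusted p = 0.000272). Trh, which encodes a hypothalamic hormone precursor and marks early endoderm, had 66 and 87 in miniSOX libraries, against 11, 11, 20 and 10 in SOX2 libraries (2.27 ± 0.47, adjusted p = 0.00504), and did not pass without miniSOX replicate 2 (2.07). The untransduced NTC libraries in 2i held more Trh than either line, at 383, 407 and 1222. Whether its level bears on endoderm here was not tested.

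Endoderm cells lay down basement membrane, and of 23 basement membrane genes 2 rose and 2 fell, a share of 17.4% beside the background of 14.9%. With either miniSOX library left out 1 was higher and 2 were lower. Hspg2, which encodes the proteoglycan perlecan, had 7524 and 5995 in miniSOX libraries, against 16427, 18500, 16427 and 18500 in SOX2 libraries (-1.31 ± 0.16, adjusted p = 9.62e-05). Lamc1, the laminin γ1 chain, had 5667 and 5797 in miniSOX libraries, against 7522, 7059, 10739 and 13688 in SOX2 libraries (-1.01 ± 0.13, adjusted p = 0.000164). These abundant genes were lower in both miniSOX libraries than in any SOX2 library. Lamb3, a laminin chain of epithelia, had 25 and 26 in miniSOX libraries, against 4, 3, 2 and 5 in SOX2 libraries (2.89 ± 0.55, adjusted p = 0.0029). The call of Lamc1 ended without the term for the deposited set (-0.71), and that of Lamb3 in the second set alone (2.64).

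In the Wnt and β-catenin target list 4 of 16 rose and 3 fell (median 0.57), so that no common direction was seen among those that passed. Rnf43, a feedback inhibitor of Wnt receptors, had 88 in both miniSOX libraries, against 16, 13, 13 and 9 in SOX2 libraries (3.13 ± 0.47, adjusted p = 0.00053). Notum, a secreted Wnt inhibitor, had 10 and 11 in miniSOX libraries, against 40, 30, 46 and 57 in SOX2 libraries (-2.34 ± 0.43, adjusted p = 0.00247). Apcdd1, another Wnt inhibitor, had 51 and 44 in miniSOX libraries, against 118, 169, 533 and 518 in SOX2 libraries (-3.71 ± 0.40, adjusted p = 3.79e-05). Of these inhibitors, 1 rose and 2 fell, with no overlap of the groups. Without a miniSOX library the list had 1 higher and 3 lower, or 2 of each.

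Of 19 BMP pathway and Id genes 6 rose and 2 fell (median -0.03). The Id genes are direct targets of BMP signalling, and they moved in both directions. Id1 had 31 and 32 in miniSOX libraries, against 0, 3, 4 and 4 in SOX2 libraries (2.91 ± 0.76, adjusted p = 0.0189), and did not pass without miniSOX replicate 1 (2.93) or 2 (2.88). Id4 had 87 and 132 in miniSOX libraries, against 703, 703, 320 and 291 in SOX2 libraries (-1.80 ± 0.27, adjusted p = 0.000606). Smad9, a receptor-regulated SMAD of the BMP branch, had 25 and 27 in miniSOX libraries, against 84, 74, 112 and 78 in SOX2 libraries (-1.78 ± 0.23, adjusted p = 0.000176). Id1 was above and Id4 and Smad9 were below every SOX2 library. With 1 miniSOX library left out the list had 2 higher and 2 lower.

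Germline and meiosis genes rose in 6 of 26 and fell in 2. Stra8, a retinoic acid-induced gatekeeper of meiosis, had 2548 and 2659 in miniSOX libraries, against 361, 362, 130 and 122 in SOX2 libraries (4.22 ± 0.23, adjusted p = 5.44e-08). Rhox9, a reproductive homeobox gene, had 141 and 124 in miniSOX libraries, against 46, 47, 39 and 15 in SOX2 libraries (2.01 ± 0.47, adjusted p = 0.0103). Both were higher in every miniSOX library than in any SOX2 library. Rhox9 did not pass without miniSOX replicate 1 (1.92) or 2 (2.10), and then 1 member of the list was left higher. The NTC libraries in 2i held 165, 149 and 114 for Stra8, and 166, 202 and 463 for Rhox9. The 21 genes of the 2-cell-like state, a rare totipotent-like state of these cultures, gave 0 calls in limma, and 4 were higher at an unadjusted p under 0.05. Their median log2 change was 0.67, and the Zscan4 genes are near-identical copies, so that the split of reads among them is uncertain.

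Imprinted genes rose in 5 of 28 and fell in 4 (median -0.04), and 4 were higher and 2 or 1 lower with a miniSOX library left out. Peg10, a placental gene derived from a retrotransposon, had 9718 in both miniSOX libraries, against 1370, 1370, 2864 and 3579 in SOX2 libraries (1.70 ± 0.22, adjusted p = 0.000162). Sfmbt2, a Polycomb-family gene imprinted in extraembryonic tissue, had 1569 and 1452 in miniSOX libraries, against 626, 479, 850 and 665 in SOX2 libraries (1.15 ± 0.18, adjusted p = 0.000876). The long non-coding RNA H19 had 7307 in both miniSOX libraries, against 52, 40, 1525 and 142 in SOX2 libraries (4.67 ± 0.79, adjusted p = 0.0015). All 3 lay above every SOX2 library, and for H19 the SOX2 libraries differed most, with p21 far above the rest and a change of 5.93 without it. H19 did not pass in the second set alone. In NTC libraries in 2i, Peg10 had 1900, 2125 and 5994, Sfmbt2 had 1581, 1622 and 2092, and H19 had 2099, 2218 and 4667.

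Enzymes of DNA methylation and demethylation rose in 4 of 22 and fell in 1, and with a miniSOX library left out 2 were higher and 1 or 0 lower. Apobec2, a cytidine deaminase relative, had 157 and 133 in miniSOX libraries, against 74, 60, 37 and 24 in SOX2 libraries (1.92 ± 0.28, adjusted p = 0.000427). Dnmt3a, a de novo methyltransferase, had 943 and 870 in miniSOX libraries, against 647, 581, 343 and 399 in SOX2 libraries (1.02 ± 0.26, adjusted p = 0.0161), and did not pass without miniSOX replicate 1 (0.96), miniSOX replicate 2 (1.08) or SOX2 p21 (0.82). Both were higher in miniSOX libraries than in any SOX2 library.

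Cholesterol synthesis genes fell in 5 of 24 and rose in 1 (median -0.23), and the list had 2 lower without either miniSOX library. Srebf2, the master regulator of this pathway, had 4901 and 4582 in miniSOX libraries, against 9720, 9105, 8467 and 8736 in SOX2 libraries (-0.90 ± 0.10, adjusted p = 5.05e-05). Pmvk, a mevalonate pathway kinase, had 140 and 144 in miniSOX libraries, against 267, 228, 467 and 373 in SOX2 libraries (-1.42 ± 0.25, adjusted p = 0.00183). Both were apart in all libraries. Glycolysis and lactate genes rose in 2 of 27 and fell in 3, p53 targets rose in 2 of 22 and fell in 2, and the integrated stress response list had 1 of 25 higher, shares of 18.5%, 18.2% and 4.0% beside the background of 14.9%. With a miniSOX library left out, 0 of the p53 and stress response genes and at most 1 of the glycolysis genes passed in limma. Cadherins, protocadherins and contactins rose in 1 of 26 and fell in 2, a share of 11.5%, below the background. The increase was Cdh19, a type II cadherin, with 230 and 224 in miniSOX libraries. It was listed at 0 in all 4 SOX2 libraries and also in all FNV and NTC libraries in 2i. In SL it had 308 and 256 in miniSOX libraries and 226 and 194 in FNV libraries, so it was not particular to the miniSOX line. Cdh19 is also a gene that jumps from 0 to values above 20, a kind left out of the ranked increases.

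Interferon response and antigen presentation genes fell in 6 of 23 and rose in 2 (median 0.41, but -0.48 over the 14 members with a mean of at least 50). The Ifitm genes, which encode interferon-induced membrane proteins and are also expressed in pluripotent and germ cells, made up 3 of the decreases. Ifitm1 had 42 and 37 in miniSOX libraries, against 138, 156, 319 and 278 in SOX2 libraries (-2.65 ± 0.20, adjusted p = 1.17e-06). Ifitm2 had 679 and 727 in miniSOX libraries, against 1823, 1769, 1461 and 1694 in SOX2 libraries (-1.21 ± 0.19, adjusted p = 0.000807). Ifitm3 had 166 and 177 in miniSOX libraries, against 293, 290, 470 and 431 in SOX2 libraries (-1.37 ± 0.26, adjusted p = 0.00286). The 3 neighbouring genes were lower in every miniSOX library. Irf1, an interferon-induced transcription factor, went the other way, with 205 and 226 in miniSOX libraries, against 86, 79, 101 and 74 in SOX2 libraries (1.30 ± 0.21, adjusted p = 0.00113). The list had 3 lower and 1 higher with miniSOX replicate 1 left out, and 4 lower and 1 higher with replicate 2 left out.

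Cell cycle regulators rose in 6 of 30 and fell in 2 (median -0.02). Ccnd3, which encodes cyclin D3, had 2492 and 2800 in miniSOX libraries, against 5331, 5331, 4973 and 4582 in SOX2 libraries (-0.85 ± 0.14, adjusted p = 0.00113), while Ccnd1 rose, as given above. These D cyclins changed in opposite directions. Cdkn2a, the locus of the inhibitors INK4A and ARF, had 667 and 682 in miniSOX libraries, against 493, 516, 237 and 209 in SOX2 libraries (1.33 ± 0.30, adjusted p = 0.00806), and did not pass without miniSOX replicate 1 (1.35) or 2 (1.32). Without a miniSOX library the list had 1 lower, or 2 higher and 1 lower.

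**Figure D3:**
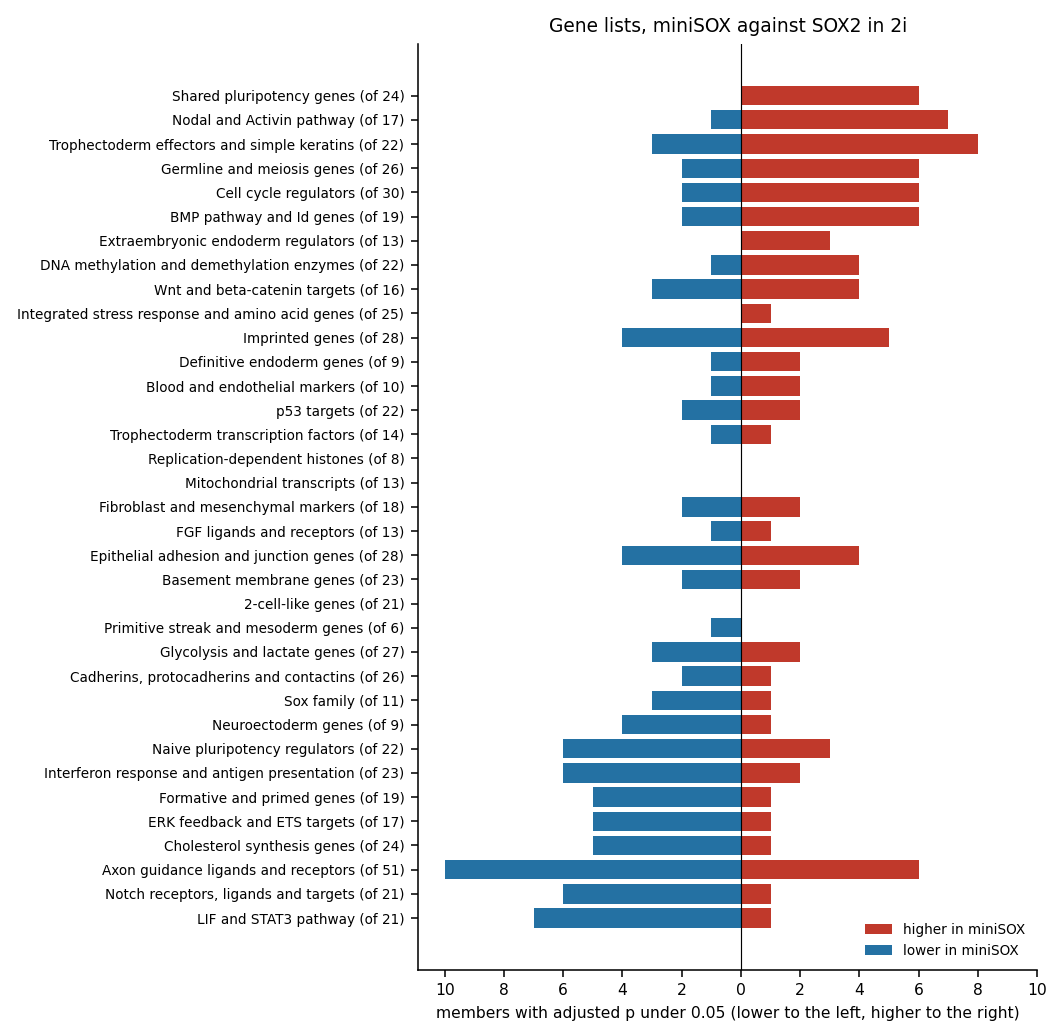
Number of members of each of 35 gene lists that passed at an adjusted p under 0.05 in miniSOX against SOX2 cells in 2i, higher to the right in red and lower to the left in blue, with the number measured in brackets. The LIF and STAT3 pathway (7 lower, 1 higher of 21) and the Nodal and Activin pathway (7 higher, 1 lower of 17) stand near opposite ends. Over all genes 14.9% passed, 7.32% higher and 7.57% lower.

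Markers of other cell types were also read. Of 18 fibroblast and mesenchymal markers 2 rose and 2 fell (1 of each with either miniSOX library left out), and the summed value of the list was 24005 and 23914 in miniSOX libraries, against 24061, 24122, 32163 and 42247 in SOX2 libraries, nearly all of it Fn1. The defining markers Col1a1, Col1a2 and Dcn stood at 42 or below in every one of these libraries. Vim, the intermediate filament vimentin, had 54 and 59 in miniSOX libraries, against 309, 363, 785 and 453 in SOX2 libraries (-3.37 ± 0.30, adjusted p = 7.01e-06). Col3a1 had 26 and 21 in miniSOX libraries, against 7, 0, 0 and 0 in SOX2 libraries (adjusted p = 0.0119), and did not pass without miniSOX replicate 1 (4.04) or 2 (4.34). Of 10 blood and endothelial markers 2 rose and 1 fell, with summed values of 3928 and 3996 in miniSOX libraries, against 5384, 5742, 4078 and 3321 in SOX2 libraries, most of it Pecam1, which embryonic stem cells express. Without either miniSOX library 0 of the 10 passed in limma. The part of other cells in the changes above was not tested. As for RNA quality, 0 of 13 mitochondrial transcripts and 0 of 8 replication-dependent histone genes passed in limma, and at an unadjusted p under 0.05 there was 1 of each. In bulk RNA, fewer cells with a transcript and less transcript per cell cannot be told apart.

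Beyond the lists, 12 increases and 12 decreases were chosen by rule. The rule ranks by log2 change and takes only genes without overlap, so it favours genes that are all but silent in 1 group. Among the increases, Ap3b2, a neuronal vesicle adaptor subunit, had 1072 and 956 in miniSOX libraries, against 57, 46, 41 and 31 in SOX2 libraries (4.99 ± 0.42, adjusted p = 3.34e-06). Barx1, a homeobox gene of the stomach, had 53 and 65 in miniSOX libraries, against 0, 3, 1 and 1 in SOX2 libraries (4.78 ± 0.73, adjusted p = 0.00061). Gkn1, a stomach-lining peptide gene, had 179 and 86 in miniSOX libraries and was listed at 0 in all SOX2 libraries (adjusted p = 0.000555). These 3 genes were at 57 or below in every SOX2 library. Kcne1l, a potassium channel subunit gene, had 80 and 99 in miniSOX libraries, against 1 in each SOX2 library (5.11 ± 0.84, adjusted p = 0.0011). Rab3c, a GTPase of synaptic vesicles, had 172 and 166 in miniSOX libraries, against 2, 2, 42 and 1 in SOX2 libraries (4.63 ± 1.16, adjusted p = 0.0156). It did not pass without miniSOX replicate 1 (4.61) or 2 (4.66) or SOX2 p31 (3.71), and moved to 6.02 without SOX2 p21.

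The other increases were Sox17, H19, BB019430 and genes whose copies or large families make their values uncertain. Amy2a5 and Sprr2a2 have near-identical gene copies, and Vmn2r62 and Vmn2r-ps130 belong to the large vomeronasal receptor family, so reads could have been split among copies. BB019430 is a non-coding gene with a cDNA clone name, and whether its reads are shared with other genes was not tested. Amy2a5 had 368 in both miniSOX libraries, against 1 in each SOX2 library (7.53 ± 1.30, adjusted p = 0.00155). BB019430 had 251 and 182 in miniSOX libraries, against 6, 6, 4 and 6 in SOX2 libraries (5.17 ± 0.91, adjusted p = 0.00184). Vmn2r-ps130 had 201 and 303 in miniSOX libraries, against 10, 11, 8 and 11 in SOX2 libraries (adjusted p = 0.00145). Each was at 11 or below in the SOX2 libraries in 2i. In other groups such values jumped between libraries of 1 group. Amy2a5 had 280 and 1 in miniSOX libraries in SL, and BB019430 had 6 and 228 in NTC libraries in SL. In FNV libraries in 2i Vmn2r-ps130 had 11, 216, 9 and 8, and Vmn2r62 had 224, 5, 4 and 233. Vmn2r-ps130 also had 282 and 301 in SOX2 libraries in SL. Sprr2a2 (4.54 ± 1.10, adjusted p = 0.0129) did not pass without miniSOX replicate 1 (4.35) or 2 (4.73), and moved to 5.66 without SOX2 p21 and 3.47 without p31. Vmn2r62 (5.85 ± 1.82, adjusted p = 0.0431) did not pass without any 1 of the 6 libraries, with changes between 5.66 and 6.32.

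Among the decreases besides those given above, Mycl, which encodes the transcription factor L-MYC, had 24 and 25 in miniSOX libraries, against 167, 270, 510 and 530 in SOX2 libraries (-4.12 ± 0.29, adjusted p = 5.56e-07). Ly6g6e, a membrane-anchored LY6 protein gene, had 9 and 18 in miniSOX libraries, against 483, 518, 672 and 300 in SOX2 libraries (-5.40 ± 0.44, adjusted p = 2.87e-06). Kbtbd11, a kelch-repeat protein gene, had 7 and 9 in miniSOX libraries, against 253, 235, 98 and 120 in SOX2 libraries (-4.19 ± 0.38, adjusted p = 7.6e-06). For these genes the lowest SOX2 library was several times the highest miniSOX library. Prag1, a pseudokinase gene, had 7 and 6 in miniSOX libraries, against 53, 56, 221 and 219 in SOX2 libraries (-4.52 ± 0.50, adjusted p = 4.73e-05). Cbln1, a synaptic organizer, had 6 and 2 in miniSOX libraries, against 293, 279, 212 and 76 in SOX2 libraries (-5.08 ± 0.54, adjusted p = 3.45e-05), with -5.69 without miniSOX replicate 1 and -4.47 without replicate 2. Gfod1, an oxidoreductase domain gene, had 6 and 0 in miniSOX libraries, against 66, 49, 59 and 49 in SOX2 libraries (-4.21 ± 0.55, adjusted p = 0.000162), with -5.62 and -2.81 in the same order. The changes of Cbln1 and Gfod1 thus kept their direction and calls but not their size. Olfr1564 is an olfactory receptor gene of a large family whose copies can share reads. It was listed at 0 in both miniSOX libraries, against 119, 95, 88 and 81 in SOX2 libraries (adjusted p = 0.00347). In SL its miniSOX libraries had 1 and 78, a jump within 1 group.

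Some calls of genes named here depended on how the deposited sets entered. Without the term for the set the calls of 19 genes ended, those of Acvr2b, Apcdd1, Ascl2, Ccnd1, Cd34, Cdkn2a, Eomes, Gdf3, Ifitm3, Il6st, Lamc1, Lefty1, Lefty2, Notch1, Otx2, Pkp2, Sox21, Vmn2r62 and Zeb1. In the second set alone, which leaves 2 SOX2 libraries, the calls of 30 genes ended, those of Acvr2b, Amy2a5, Ascl2, Ccnd1, Cd34, Eomes, Etv4, Gdf3, H19, Id1, Ier3, Inhbb, Klf2, Klf4, Lamb3, Lefty1, Lefty2, Olfr1564, Pim1, Pkp2, Rab3c, Rnf43, Slc2a3, Sox11, Sox21, Sprr2a2, Stat3, Trh, Vmn2r62 and Zeb1. Against the SOX2 libraries of the first set alone, 10 calls ended, those of Acvr2b, Ccnd1, Cd34, Cdkn2a, Eomes, Gdf3, Il6st, Notch1, Otx2 and Zeb1.

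The miniSOX line was also set against the FNV line, the other line with high Sox17, in 2i. Here 1260 genes passed (7.66%), 627 higher (3.81%) and 633 lower (3.85%) in miniSOX cells. Because both comparisons use the same miniSOX libraries, their values are given side by side. The count was 140 without miniSOX replicate 1, 128 without replicate 2, 835 without FNV replicate 1 and 2995 without FNV p21. Nodal had 712 and 702 in miniSOX libraries, against 273, 277, 254 and 290 in FNV libraries (1.48, adjusted p = 0.0093, beside 1.41 against SOX2). Stra8 had 2548 and 2659 in miniSOX libraries, against 2240, 2394, 1055 and 649 in FNV libraries (1.53, adjusted p = 0.0027, beside 4.22 against SOX2). Both were higher in miniSOX cells than in SOX2 or FNV cells. The NTC libraries in 2i held 634, 553 and 240 for Nodal, and 165, 149 and 114 for Stra8. Without miniSOX replicate 1 or 2 the call of Nodal against FNV ended (1.47 and 1.49), and that of Stra8 did not.

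The keratins and Epcam lay between the lines. Krt8 had 1119 and 1265 in miniSOX libraries, against 3513, 3770, 2659 and 2761 in FNV libraries (-1.82, adjusted p = 0.019). Krt18 had 716 and 738 in miniSOX libraries, against 2601, 2743, 2394 and 1110 in FNV libraries (-1.70, adjusted p = 0.027). Epcam had 1303 and 1363 in miniSOX libraries, against 2698, 3326, 2268 and 1962 in FNV libraries (-0.66, adjusted p = 0.0028). Dab2 had 2384 and 2503 in miniSOX libraries, against 4972, 4972, 3897 and 4178 in FNV libraries (-1.11, adjusted p = 0.022). For these 4 genes every miniSOX library was below every FNV library and above every SOX2 library. The calls against FNV ended without miniSOX replicate 1 for Krt8 (-1.74), Krt18 (-1.68) and Dab2 (-1.07), and without replicate 2 for the same genes (-1.91, -1.72 and -1.14), but not for Epcam. Some genes that fell against SOX2 did not pass against FNV: Ntn1 (0.36, adjusted p = 0.62), Lifr (-0.27, adjusted p = 0.33), Etv4 (0.51, adjusted p = 0.65) and Tubb3 (-0.81, adjusted p = 0.22). The FNV libraries held between 2 and 12 for Ntn1 and between 138 and 278 for Lifr. A p above the threshold does not show that the lines were alike.

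**Figure D4:**
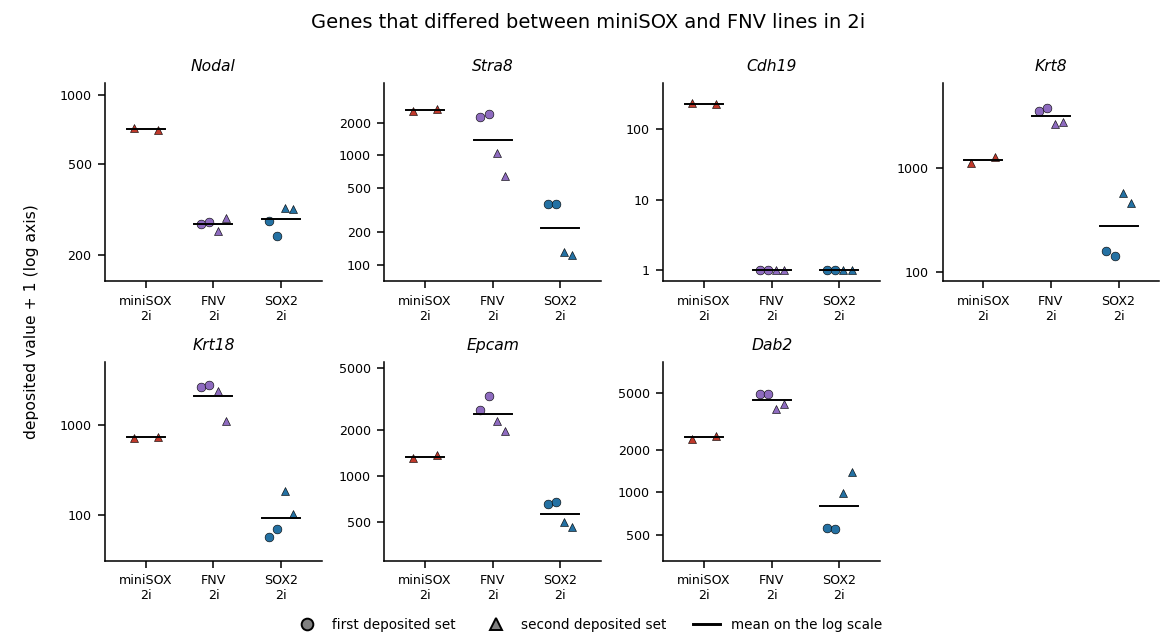
Deposited value plus 1 (vertical log axis, different in each panel) of 7 genes in the miniSOX (2), FNV (4) and SOX2 (4) libraries in 2i, with circles for the first and triangles for the second deposited set and bars for the mean on the log scale. Nodal, Stra8 and Cdh19 are highest in miniSOX libraries, and for Krt8, Krt18, Epcam and Dab2 the miniSOX libraries lie between the other groups.

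Whether the difference between miniSOX and SOX2 cells was the same in serum and LIF was tested with an interaction term. In 1963 genes (11.9%) the difference between the lines differed between the media, with 1012 and 1040 genes without miniSOX replicate 1 or 2 in 2i, 1045 and 1072 without replicate 1 or 2 of miniSOX in SL, and 1208 without SOX2 replicate 2 in SL. In SL the miniSOX libraries are all of the second and the SOX2 libraries all of the first deposited set, so that medium-dependent differences there rest on the term for the set. The fibroblast marker Col1a1 had 221 and 325 in miniSOX libraries in SL, against 25 and 23 in SOX2 libraries in SL, and Dcn had 75 and 96 in miniSOX libraries in SL and was listed at 0 in both SOX2 libraries in SL. The summed value of all 18 fibroblast and mesenchymal markers was 11080 and 10884 in miniSOX libraries in SL, against 9171 and 10622 in SOX2 libraries in SL. The part of such cells in the differences between media was not tested. Of the genes named by rule, the 6 with the smallest adjusted p are given. Ifitm1 had 645 and 603 in miniSOX libraries in SL, against 286 and 243 in SOX2 libraries in SL, a higher level where it was lower in 2i (interaction -3.35, adjusted p = 8.8e-06). Ocln, the tight junction protein occludin, had 214 and 198 in miniSOX libraries in 2i, against 329, 327, 358 and 343 in SOX2 libraries in 2i (-0.74 ± 0.09, adjusted p = 0.000104), and 228 and 262 in miniSOX libraries in SL, against 170 and 162 in SOX2 libraries in SL (interaction -1.25, adjusted p = 5.6e-05). Both genes turned direction between the media.

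Of 28 epithelial adhesion and junction genes 4 rose and 4 fell in 2i, and 3 were higher and 2 lower without either miniSOX library. Pkp2, a desmosome plaque protein, had 469 and 403 in miniSOX libraries in 2i, against 311, 303, 203 and 287 in SOX2 libraries in 2i (0.89 ± 0.15, adjusted p = 0.0015), and 996 and 984 in miniSOX libraries in SL, against 2268 and 2414 in SOX2 libraries in SL (interaction 1.70, adjusted p = 0.00032). Cd34, a sialomucin of blood and vessel progenitors, had 94 and 84 in miniSOX libraries in 2i, against 81, 75, 50 and 54 in SOX2 libraries in 2i (0.62 ± 0.16, adjusted p = 0.0174), and 47 and 57 in miniSOX libraries in SL, against 151 and 140 in SOX2 libraries in SL (interaction 1.80, adjusted p = 0.0003). These genes were higher in miniSOX cells in 2i and lower in SL. Cd34 did not pass in 2i without miniSOX replicate 1 (0.54), miniSOX replicate 2 (0.70) or SOX2 p21 (0.52). Zeb1, a repressor of epithelial genes, had 343 and 351 in miniSOX libraries in 2i, against 347, 342, 530 and 651 in SOX2 libraries in 2i, which overlapped (-0.63 ± 0.15, adjusted p = 0.0113), and 79 and 83 in miniSOX libraries in SL, against 279 and 319 in SOX2 libraries in SL (interaction 1.76, adjusted p = 0.00023). Its call in 2i ended without miniSOX replicate 1 (-0.62) or 2 (-0.65). Sox21 had 3 and 2 in miniSOX libraries in SL, against 501 and 191 in SOX2 libraries in SL, a wider gap than in 2i (interaction 5.36, adjusted p = 0.0005). Of the 1204 genes higher in 2i, 310 also had a difference between the media, and of the 1245 lower ones, 274 did. The interaction contains the same difference in 2i from the same libraries, so these overlaps are not independent of the calls in 2i.

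**Figure D5:**
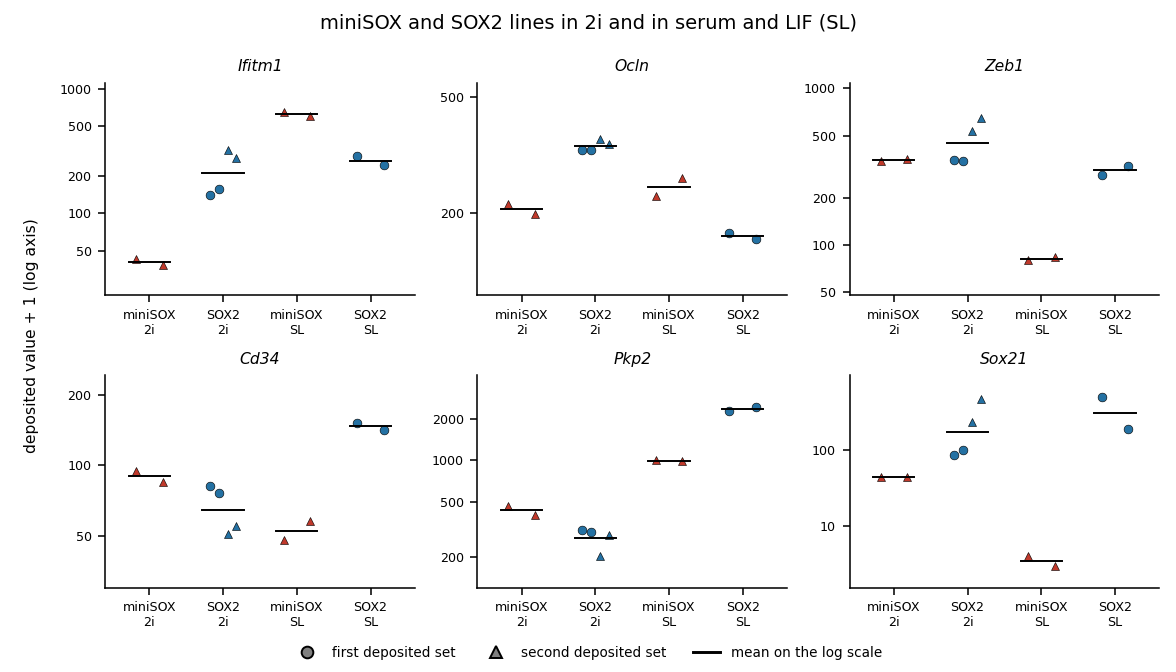
Deposited value plus 1 (vertical log axis, different in each panel) of 6 genes in miniSOX and SOX2 libraries in 2i (2 and 4 libraries) and in serum and LIF (2 each), with circles for the first and triangles for the second deposited set and bars for the mean on the log scale. Ifitm1 and Ocln are lower in miniSOX than in SOX2 libraries in 2i and higher in serum and LIF.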

How the data were processed

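RNA was measured by poly(A) RNA-seq of bulk 2TS22C cells, per the labels' protocols. RSEM, Bowtie2 2.0 and the build mm10 are named in the submitters' processing notes, with no order or settings. The deposited values are whole-number scores per gene: they fall on nearly the same sorted values in every library (66.3% of ranks identical in all 21), so the authors had normalized them between libraries and rounded them, a step no source used here describes. They are not read counts, depth is unknown, and no counting interval can be given. All 16443 genes exceeded 20 in at least 2 libraries.

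Values were analysed as log2(value + 1) with limma 3.58.1 in R 4.3.3 (trend and robust moderation), in 1 fit of all 21 libraries with a term per group and a term for the deposited set (first or second, from the organism label and title), with 12 residual degrees of freedom. Tests were two-sided with Benjamini-Hochberg adjustment over 16443 genes and a threshold of 0.05, and the scripts were checked on simulated data. With the pseudocount, low genes appear to change less than they do. The p21 and p31 columns match the SOX2 group but not a numbered sample.

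The rule for named genes took Sox17 and Sox2 first. It then took 12 increases and 12 decreases, those largest among genes that passed without overlap of the libraries, whose higher group averaged 50 or more, with no predicted-gene symbol and no jump from 0 to values above 20. Then came up to 4 members of each of 35 gene lists with the smallest adjusted p, other members where a role needed them, and the 6 named genes with the smallest adjusted p for the difference between media. The members and lists were chosen with earlier results of these data known. In the jump filter, 684 genes were at 0 in some library with no value from 1 to 20 in any, and 32 of them passed. Some items are not reported here.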

Additional observations from a re-analysis of the deposited data

Results flagged for a closer look

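In 11 of the 123 genes named, 1 of the 4 SOX2 libraries in 2i stood far from the other 3 by Dixon's criterion, which chance alone meets in about 1 of 20 groups. The outlying SOX2 value was the lowest for Atp1b1 (3208), BB019430 (4), Lefty1 (0) and Slc2a3 (25019). It was the highest for Col3a1 (7), Dcn (40), H19 (1525), Id2 (133), Rab3c (42), Sema7a (45) and Trh (20). The outlying library was p21 for BB019430, Dcn, H19, Rab3c, Sema7a and Trh, p31 for Atp1b1, Lefty1 and Slc2a3, replicate 1 for Col3a1 and replicate 2 for Id2.

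Of the 1963 genes that passed the interaction test, the 6 named by rule with the smallest adjusted p are flagged. Other named genes passed it too. For these 6 the log2 difference of miniSOX minus SOX2 cells in 2i was unlike that in serum and LIF. The difference in 2i minus that in serum and LIF was -3.35 for Ifitm1, -1.25 for Ocln, 1.76 for Zeb1, 1.80 for Cd34, 1.70 for Pkp2 and 5.36 for Sox21. In serum and LIF the lines come from different deposited sets, so the line and the set cannot be told apart there without the term for the set.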

How the results depend on the processing

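The count of 2449 genes in miniSOX against SOX2 became 1414 without the term for the deposited set, 1080 with the second set alone and 7039 against the SOX2 libraries of the first set alone, and lay between 871 and 2230 when 1 library was left out. It was within 1.5 times under the other alternatives, among them both pseudocounts, median centring and, chosen after the data were seen, leaving out genes that jump from 0. Against FNV, 1260 genes became 276 without the set term and 107 with the 2 groups alone, and between 128 and 2995 with 1 library left out. For the difference between media, 1963 became 875 and 3885 under the same settings, and between 1012 and 2175 with 1 library left out. The cause was not tested.

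Against the first-set SOX2 libraries alone, 229 of the 2449 genes had the opposite sign, and among those named Il6st (0.0465) and Zeb1 (0.0103) turned direction, as did Fgf4 (-0.594) and Pecam1 (-0.505), which had not passed with all libraries. Of 100 named genes that passed, 57 passed and 98 kept their sign in every alternative, with 30 lost in the second set alone and 19 without the set term. The replicate numbers did not pair the samples (correlation of deviations 0.0319 between miniSOX and SOX2 over 12133 genes), and with the number as a replicate block 2260, 1042 and 1753 genes passed in the 3 comparisons. Depth is unknown, so low values carry an error that cannot be given.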
